A study of Rattus norvegicus with 8 samples.

Results

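The alpha-2u globulins of rat liver, together with other liver genes that follow the pattern of growth hormone secretion, were followed here in livers of thioacetamide-treated and untreated rats. The 9 genes were Obp3, Mup5, Mup4l3 and Mup4, which encode alpha-2u globulins, LOC688253, described in the files as similar to a urinary protein, and Hsd3b5, Srd5a1, A1bg and Cux2. Each was found by its symbol or gene identifier and was represented by 1 probe set, which gave 9 of the 26208 probe sets and 9 of the 24137 genes on the array. They were chosen by name with the difference between treated and control livers already known, so their differences are described without a test.

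The study measured liver RNA of male F344/N rats on NimbleGen expression arrays with 1 dye (Cy3). A group of 4 rats received thioacetamide, a compound that injures liver after oxidation in hepatocytes, for 28 days, and 4 control rats were kept on basal diet and tap water. Every rat shared the strain, the sex and the label of dosing by gavage; the labels used here gave no dose or age, and they also call the controls untreated. RNA was taken from whole liver tissue of 1 animal per array, and no female rats and no growth hormone treatment were included, so the sex pattern of each gene is background knowledge and was not measured.

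Alpha-2u globulins are small secreted lipocalins, proteins with a barrel-shaped pocket for greasy ligands, that adult male rat hepatocytes release into blood and the kidney passes into urine, where they carry scent molecules. In rats, males release growth hormone in widely spaced pulses and females more continuously, and the hormone acts on hepatocytes through its receptor, the kinase Jak2 and the transcription factor Stat5b. The pulsed pattern favours male-patterned genes such as the globulins and Cyp2c11, and the continuous pattern favours female-patterned genes such as Cyp2c12. Androgens, glucocorticoids and thyroid hormone are also needed for full globulin expression in rat liver, and oestrogens lower it.

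The globulin genes lie next to each other on chromosome 5. In the RefSeq annotation of the GRCr8 assembly, the stretch from Obp3 to Mup4l3 held 12 protein-coding genes, of which 7 had globulin names. The promoters of the 4 globulin genes among the 9 are shown because these genes sit together and, apart from Mup4, differed in the same direction. Each sequence runs 5′ to 3′ over the 250 bases before the annotated start, from RefSeq (GRCr8), on the minus strand of chromosome 5, at chr5:79640676-79640925 for Obp3, chr5:79999696-79999945 for Mup5, chr5:80318373-80318622 for Mup4l3 and chr5:79759497-79759746 for Mup4. Capitals mark matches on either strand to the palindromes bound by STAT proteins (TTC and GAA with 3 or 4 bases of any kind between them), to ATCAAT, a core bound by HNF6 and Cut proteins such as Cux2, and to TATAAA, the TATA box. These motifs were chosen after the promoters had been read.
Obp3: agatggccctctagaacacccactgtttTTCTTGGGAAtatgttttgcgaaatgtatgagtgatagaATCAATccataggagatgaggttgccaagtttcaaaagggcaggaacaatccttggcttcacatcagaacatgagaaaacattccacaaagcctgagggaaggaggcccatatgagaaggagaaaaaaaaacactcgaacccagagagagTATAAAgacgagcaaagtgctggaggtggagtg
Mup5: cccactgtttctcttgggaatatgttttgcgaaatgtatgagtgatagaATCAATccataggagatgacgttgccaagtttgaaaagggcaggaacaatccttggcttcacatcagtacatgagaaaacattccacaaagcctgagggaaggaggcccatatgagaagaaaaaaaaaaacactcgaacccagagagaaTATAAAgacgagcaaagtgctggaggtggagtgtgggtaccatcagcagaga
Mup4l3: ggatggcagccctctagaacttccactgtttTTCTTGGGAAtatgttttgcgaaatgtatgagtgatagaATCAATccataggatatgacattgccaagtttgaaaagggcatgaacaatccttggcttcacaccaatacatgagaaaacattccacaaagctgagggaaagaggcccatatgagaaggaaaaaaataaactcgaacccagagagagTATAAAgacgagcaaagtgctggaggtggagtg
Mup4: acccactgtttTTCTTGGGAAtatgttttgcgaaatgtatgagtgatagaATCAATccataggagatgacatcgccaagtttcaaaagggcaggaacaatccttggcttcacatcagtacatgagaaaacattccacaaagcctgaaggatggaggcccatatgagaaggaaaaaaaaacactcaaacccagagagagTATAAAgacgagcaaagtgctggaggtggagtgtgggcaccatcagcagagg

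Aligned over the bases they share, the 4 promoters were 94.74% to 97.4% identical over 229 to 249 bases. Each carried 1 ATCAAT match and 1 TATAAA match, against 6.99% and 13.1% of the 27457 RefSeq promoters of the same length that carried at least 1. The palindrome with 4 bases between was present in Obp3, Mup4l3 and Mup4, where it read TTCTTGGGAA, and 6.29% of all promoters carried a match to it. Counted from the 5′ end of that stretch, Mup5 differed from Obp3 by T1C and had no match. Among the neighbours that were not members, Mup4l4 differed by T1G and had no match, and Mup4l1 differed by G8A, which left a match to the palindrome with 3 bases between, the spacing that Stat5 prefers, found in 7.52% of promoters. Both kept ATCAAT and TATAAA, whereas Mup18, between Mup4 and Mup5 in the gene order, held no match to any of the motifs searched. Each of the 4 also held 1 match to TTGCNNAA, a C/EBP core found in 9.2% of promoters and not capitalised, and Obp3 held 2 matches to AGAACA, part of a steroid receptor site, found in 17.1%. Outside the globulins, the A1bg promoter held 1 match each to the palindrome with 3 bases between and to ATCAAT, whereas Srd5a1 and Cux2 held none to the palindromes, ATCAAT or TATAAA. A match is a run of letters and not a measured binding site, and no match says only that the letters were not in this window. RefSeq promoters for Hsd3b5 and LOC688253 were not used here.

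The values are the deposited log2 expression values, where a difference of 1 is a doubling of signal. Array medians lay between 7.27 and 7.40. A background level was set on each array at the 95th percentile of 1312 probe sets described as olfactory receptors, genes that liver has little use for. It was 6.53 to 6.93 on thioacetamide arrays and 6.96 to 7.88 on control arrays. Every control array thus had a higher level than any thioacetamide array, so counts of arrays above it are stricter for control livers. The liver label held, with 6 of 6 hepatocyte markers above the level on all arrays, none passing limma's test (also none at an unadjusted p under 0.05) and differences between -0.12 and 0.18, although their summed linear level, 288861 to 308010 in thioacetamide livers and 287145 to 304428 in control livers, lay close to the top of the scale. Control replicate 3 stood apart, with a mean correlation of 0.935 with the other controls, where the other control arrays had 0.955 to 0.959 and the thioacetamide arrays 0.971 to 0.982. Values without that array are among those given in the account of the processing. Of the 9 probe sets, 6 were above the level on all 8 arrays, and Mup4, A1bg and Cux2 were not.

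Among the globulins, Obp3, annotated in the files as isoform 2 of the PGCL4 globulin and elsewhere named for odorant binding, measured 10.49, 10.67, 10.23 and 8.99 in the 4 thioacetamide livers, against 14.02, 14.23, 14.12 and 13.49 in the 4 control livers. Every treated liver lay below every control liver, and treated replicate 4 was the lowest. The means were 10.09 ± 0.76 in thioacetamide livers and 13.97 ± 0.33 in control livers (SD, n = 4 each), a difference of -3.87 ± 0.36 (standard error of the fit), or 14.7-fold lower signal. It was the 17th lowest difference of the 26208.

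Mup4l3, a neighbouring globulin gene listed in the files as LOC298111, measured 8.40, 8.91, 7.58 and 7.45 in thioacetamide livers, against 13.03, 12.99, 11.80 and 12.48 in control livers. The groups did not overlap, and all treated values lay above the background level. Treated replicates 3 and 4 were the nearest to it, with levels of 6.72 and 6.93 on their arrays. The means were 8.09 ± 0.69 in thioacetamide livers and 12.57 ± 0.57 in control livers (SD, n = 4 each), a difference of -4.49 ± 0.38 and the largest among the 4 globulin members, at 22.5-fold lower signal. Mup5, major urinary protein 5, measured 12.75, 11.96, 10.93 and 11.59 in thioacetamide livers, against 14.36, 13.28, 13.17 and 13.55 in control livers. Its groups did not overlap either, but all treated livers still held strong signal. The means were 11.81 ± 0.76 in thioacetamide livers and 13.59 ± 0.54 in control livers (SD, n = 4 each), a difference of -1.78 ± 0.39 or 3.44-fold lower signal.

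Mup4, whose promoter was 96.97% identical to that of Obp3 and carried the same palindrome, gave no measurable signal. It measured 5.64, 5.59, 6.51 and 5.54 in thioacetamide livers, against 5.67, 6.57, 6.28 and 6.05 in control livers. All 8 values were at or under the background level of their array, so its difference of -0.32 ± 0.28 carries no fold. The 4 globulin probe sets therefore did not act as 1 readout, although probes for near-identical genes may share signal and the probe sequences were not used here.

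LOC688253 is kept apart from the globulins because its coding length, 303 bases, is well under the 540 to 546 bases of the 4 globulin members, and its description names a urinary protein, not a globulin. It rested on 2 probes and measured 10.21, 9.42, 6.89 and 9.24 in thioacetamide livers, against 14.54, 14.35, 14.57 and 14.30 in control livers. Controls were tight and treated livers were spread, with treated replicate 3 close to the background level. The means were 8.94 ± 1.43 in thioacetamide livers and 14.44 ± 0.14 in control livers (SD, n = 4 each), a difference of -5.50 ± 0.58 or 45.2-fold lower signal.

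**Figure D1:**
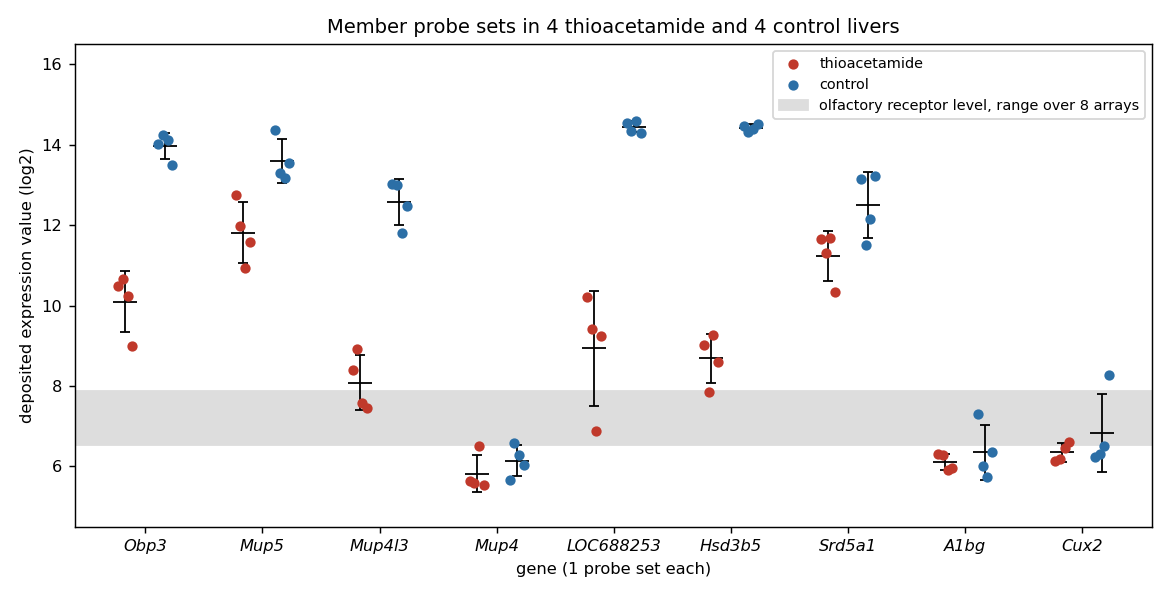
Deposited log2 values (vertical axis) of the 9 member probe sets (horizontal axis), with 4 thioacetamide livers in red on the left and 4 control livers in blue on the right of each gene; black bars are means with SD and the grey band spans the olfactory receptor level, 6.53 to 7.88 over the 8 arrays. Thioacetamide livers lay below all control livers for Obp3, Mup5, Mup4l3, LOC688253 and Hsd3b5, groups overlapped for Srd5a1, and Mup4, A1bg and Cux2 sat in or below the band apart from 1 control value of 8.28 for Cux2.

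Hsd3b5, in rats a male-patterned 3-ketosteroid reductase of the 3 beta-hydroxysteroid dehydrogenase family that inactivates androgens in liver, had the largest difference of the 9. It measured 9.02, 7.86, 9.26 and 8.60 in thioacetamide livers, against 14.47, 14.31, 14.38 and 14.51 in control livers. No treated liver came within 5 log2 units of the lowest control liver, and the control values spanned only 0.20. The means were 8.69 ± 0.61 in thioacetamide livers and 14.42 ± 0.09 in control livers (SD, n = 4 each), a difference of -5.73 ± 0.29 or 53.1-fold lower signal, the 5th lowest on the array. The files list it as Hsd3b, and members of that family are similar in sequence, so signal from a close copy cannot be told apart.

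Srd5a1, steroid 5 alpha-reductase 1, which reduces testosterone and is female-patterned in rat liver, measured 11.64, 11.30, 11.67 and 10.32 in thioacetamide livers, against 13.14, 11.50, 12.14 and 13.21 in control livers. Groups overlapped, with control replicate 2 inside the treated range and controls 2 and 3 well below the other 2. The means were 11.23 ± 0.63 in thioacetamide livers and 12.50 ± 0.82 in control livers (SD, n = 4 each), a difference of -1.26 ± 0.43.

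A1bg, alpha-1B glycoprotein, a plasma protein that is female-patterned in rat liver, measured 6.30, 6.28, 5.92 and 5.95 in thioacetamide livers, against 7.30, 6.02, 5.73 and 6.36 in control livers. Cux2, a Cut family repressor that in mouse liver is female-patterned and lowers male-patterned genes, rested on 2 probes, is listed as Cutl2, and measured 6.13, 6.19, 6.47 and 6.61 in thioacetamide livers, against 6.23, 6.31, 6.52 and 8.28 in control livers. For both genes no treated array and 1 of 4 control arrays passed the background level, so no direction is drawn from differences of -0.24 ± 0.32 for A1bg and -0.49 ± 0.42 for Cux2. Of the 3 female-patterned members, therefore, only Srd5a1 was measured above background on all arrays.

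Over the whole array, 14.6% of probe sets passed limma's test in either direction. Over the 9 member probe sets, 9 of 9 differences were below 0, including those of Mup4, A1bg and Cux2, for which no direction is drawn, where 13776 of 26197 were below 0 over all probe sets with full values. Of the 9, 5 had every thioacetamide value under every control value, a pattern that 7.55% of all probe sets showed in that direction and 13.9% in the other. Because the 9 were chosen on this contrast, nothing is read from that count. These livers were bulk tissue, so fewer cells that make a transcript and less transcript per cell cannot be told apart.

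The array held 10 more probe sets whose description names an alpha-2u globulin or major urinary protein, picked by description after values were seen and so given without a test. All 10 had lower values in every thioacetamide liver than in any control liver. Together with the members, 13 globulin probe sets other than Mup4 had differences from -4.49 to -1.66 with a median of -2.73, or 3.16- to 22.5-fold lower signal, where the median over all probe sets was -0.03. Of these 13, 12 were above the background level on all arrays, and LOC681426 was above it on 2 of 4 treated arrays.

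The globulins differed among themselves by more than 2 log2 units. LOC685482 stood at -4.06 and LOC682694 at -3.91, close to Obp3 and Mup4l3. Mup4l4, which follows Obp3 on the chromosome among the named globulins, stood at -3.42. LOC259246, the PGCL1 globulin, had the brightest controls of the family at 15.48 ± 0.10 (SD, n = 4) and a difference of -2.87. At the small end were LOC682605 at -2.04 and LOC259245, the PGCL5 globulin, at -1.66, beside Mup5 at -1.78. The controls of LOC259246 lay only 0.31 to 0.61 below the brightest probe set of their array, so the top of the scale could shorten its difference; this was not tested. Probe sets with control means of at least 14 had differences from -2.87 to -2.63 (n = 3), and the 9 with dimmer controls that were above the level on all arrays ranged from -4.49 to -1.66.

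The 4 other probe sets described as urinary proteins differed less than LOC688253. Rup2, urinary protein 2, stood at -1.68, LOC680367 at -1.26 and Rup2l1 at -0.74, and in each the groups did not overlap. LOC680367 has the same description as LOC688253 and a coding length of 306 bases, against 303. It rested on 3 probes, against 2 for LOC688253, and its controls lay 0.53 to 1.30 below the top of their arrays. Why these 2 probe sets of like description differed so unequally was not tested. Rup2l1 had controls 0.35 to 0.61 below the top of their arrays. Pate14l1, at 0.16, was under the background level on all 8 arrays.

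**Figure D2:**
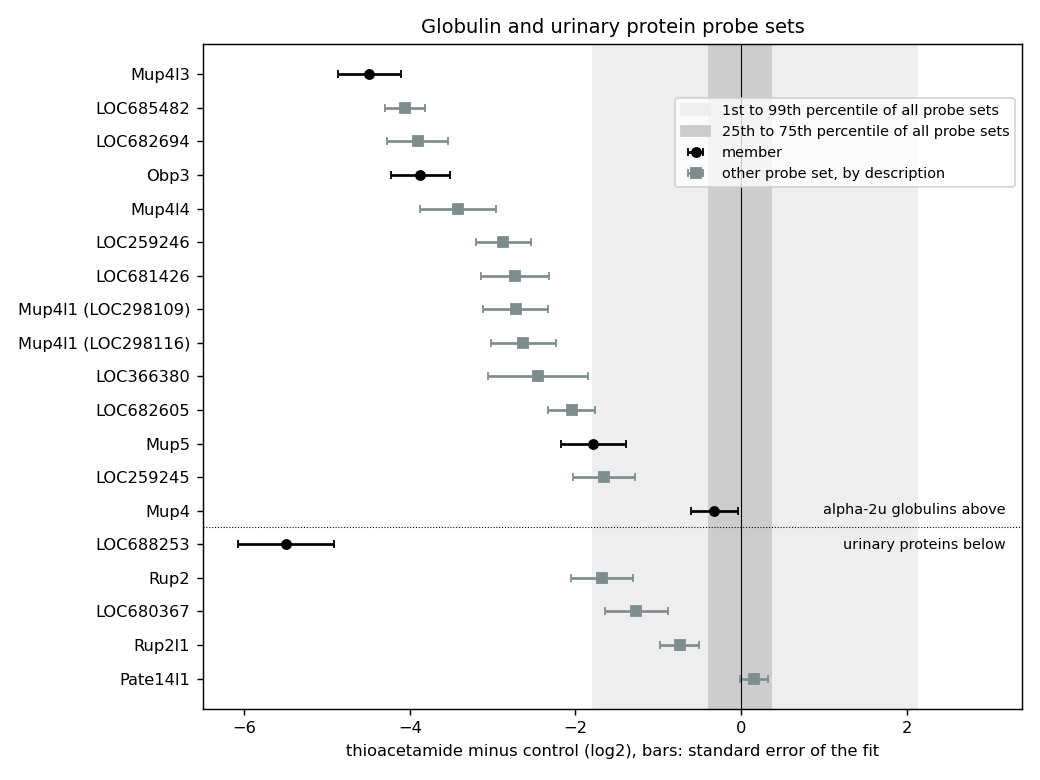
Difference between thioacetamide and control means (log2, horizontal axis, bars are the standard error of the fit) for the 14 globulin probe sets and the 5 urinary protein probe sets (vertical axis), members in black circles and others in grey squares; the shaded bands give the middle of all probe sets, from the 25th to the 75th percentile (-0.38 to 0.36), and the range from the 1st to the 99th (-1.78 to 2.12). The globulins run from -4.49 for Mup4l3 to -1.66 for LOC259245 with Mup4 alone near 0, and LOC688253 at -5.50 stands apart from the other urinary proteins.

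The depth of the difference varied between treated livers. Among the 13 globulin probe sets, treated replicate 3 was the lowest treated liver in 8 and treated replicate 4 in 4, whereas treated replicate 1 was the highest in 8 and treated replicate 2 in 4. Over all probe sets, treated replicate 3 was the lowest in 25.03% and treated replicate 1 the highest in 20.54%. The control livers also had an order, with control replicate 1 the highest control in 11 of the 14 globulin probe sets, Mup4 included, against 21.95% over all probe sets. LOC366380 showed the widest treated range, with 10.19, 10.21, 8.43 and 7.30 in thioacetamide livers, against 11.46, 12.21, 11.29 and 10.98 in control livers. Hsd3b5 did not share this order, since its lowest treated liver was replicate 2 and its highest replicate 3. The SD was larger in thioacetamide livers than in control livers for 11 of 13 globulin probe sets, with a median of 0.74 in thioacetamide livers and 0.47 in control livers. The top of the scale could narrow the control SD of bright globulins such as LOC259246 (0.10), which was not tested. Over all probe sets only 33.4% had the larger SD in thioacetamide livers, with medians of 0.29 in thioacetamide livers and 0.40 in control livers. These probe sets may share signal, so their agreement is not 13 separate observations.

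**Figure D3:**
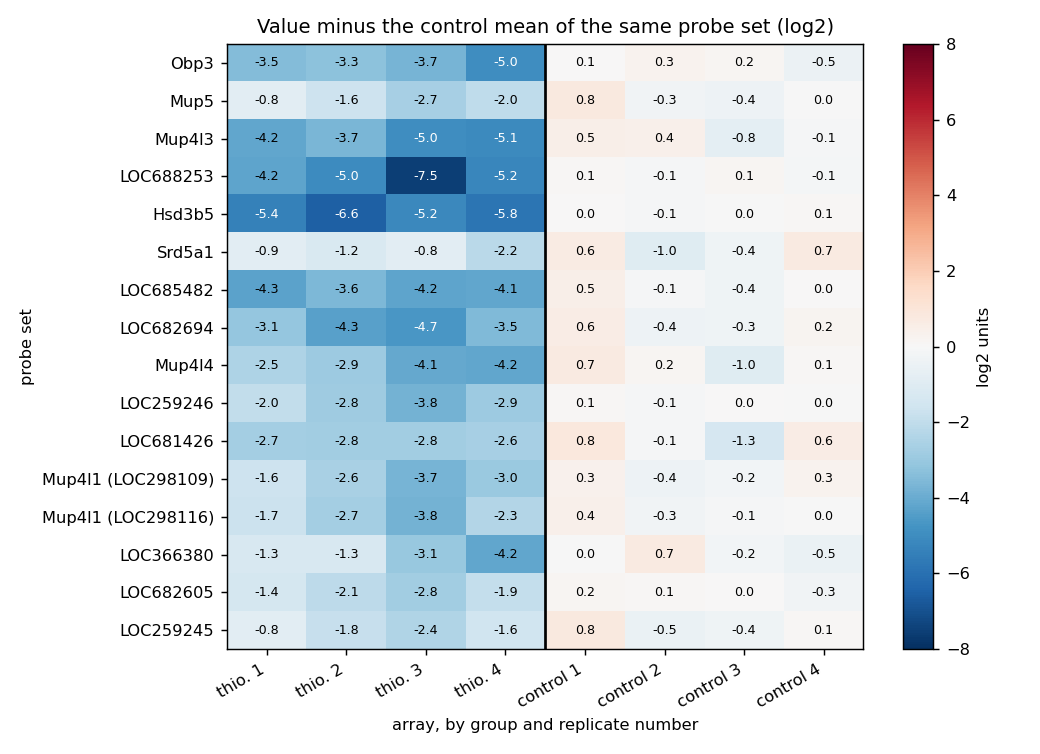
Value minus the control mean of the same probe set (log2, colour scale and printed numbers) for 6 members and 10 further globulin probe sets (rows), with thioacetamide arrays 1 to 4 on the left and control arrays 1 to 4 on the right. Thioacetamide replicate 3 holds the lowest treated value in 8 of the 13 globulin rows, and LOC688253 and Hsd3b5 are the darkest rows, with means of -5.50 and -5.73.

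The profile of each member was next compared with all other genes, by the root mean square distance over the 8 arrays after centring each profile on its own mean; a small distance means that the arrays differ from each other by like amounts in log2 units. The distance takes in the difference between groups, on which the members were chosen, so a near gene may only have a difference of like size. Nearest to Obp3 were Olr59 at 0.38, Zfp37 at 0.42 and Cyp2a2 at 0.50. Olr59, described as an olfactory receptor, averaged 7.17 ± 0.35 in thioacetamide livers and 10.98 ± 0.38 in control livers (SD, n = 4 each), and it is itself 1 of the 1312 probe sets behind the background level. Zfp37, a zinc finger gene that lies a few genes beyond Mup4l3 in the RefSeq gene order, averaged 7.72 ± 0.37 in thioacetamide livers and 11.25 ± 0.45 in control livers (SD, n = 4 each). Olr59 was also the nearest to Mup4l3, at 0.44, ahead of the globulin LOC685482 at 0.46 and Oat, ornithine aminotransferase, at 0.57.

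Nearest to Mup5 were the globulin LOC259245 at 0.20, Rup2 at 0.23 and Inhbe, the inhibin beta E subunit, at 0.30. Hsd3b5 was closest to Cyp2c11 at 0.42, Nox4 at 0.55 and Cyp3a9 at 0.58, and LOC688253 to Cyp2c11 at 0.90, Oat at 0.97 and Cyp3a9 at 0.98. The order of treated livers was not shared by Hsd3b5 and Cyp2c11. Hsd3b5 was lowest in treated replicate 2 and highest in 3, whereas Cyp2c11 was lowest in 4 and highest in 1. Srd5a1 lay near Ccdc28b at 0.28, Pbxip1 at 0.28 and Lag3 at 0.30. The nearest to the 3 dim members were LOC678734, Rnf213 and Igsf21 for Mup4, Vwa1, LOC682680 and Tmem121 for A1bg, and LOC683925, LOC688461 and Cldn8 for Cux2, with distances from 0.12 to 0.19. For members this close to background such likeness says little.

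Other genes with a known sex pattern in rat liver were taken from lists drawn up with earlier results of these data known. They were tested with limma over all 26208 probe sets with Benjamini-Hochberg adjustment at 0.05, where 5.14% of probe sets passed as lower and 9.46% as higher. Of those that passed, 64.8% were higher, against 53.5% after cyclic loess. Among 10 other male-patterned genes, 8 fell and 1 rose, with a median difference of -1.43. With any 1 array left out, 6 to 7 fell and 1 rose. Cyp2c11, the main male-patterned cytochrome P450 of rat liver and a testosterone hydroxylase, fell to 9.90 ± 0.52 in thioacetamide livers, against 15.14 ± 0.12 in control livers (SD, n = 4 each), a difference of -5.24 ± 0.26 or 37.8-fold (limma adjusted p = 4.2e-06). Cyp2a2, a testosterone hydroxylase, differed by -3.40 ± 0.22 (10.6-fold lower, limma adjusted p = 2.16e-05), and Car3, carbonic anhydrase 3, by -3.09 ± 0.30 (8.50-fold lower, limma adjusted p = 0.000222). Dhrs7, a short-chain dehydrogenase, went the other way at 0.93 ± 0.18 (limma adjusted p = 0.00729). Cyp4a2, a fatty acid hydroxylase, was the gene that did not pass, at -0.93 ± 0.33 (limma adjusted p = 0.0908).

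Among 9 other female-patterned genes, 2 rose and 1 fell, with a median difference of 0.21. Cyp2c12, a steroid sulfate hydroxylase typical of female rat liver, measured 13.06 ± 0.23 in thioacetamide livers and 10.05 ± 0.30 in control livers (SD, n = 4 each), a difference of 3.01 ± 0.22 or 8.05-fold higher (limma adjusted p = 4.14e-05). Sult2a2, a hydroxysteroid sulfotransferase, rose by 3.94 ± 0.39 (limma adjusted p = 0.000219), with 4 of 4 treated but 1 of 4 control arrays above the background level, so no fold is given; a second Sult2a2 probe set with a lower mean differed by 0.51. Cyp3a9 fell by 4.90 ± 0.20 or 29.9-fold (limma adjusted p = 1.06e-06). The other 6 did not pass, and 2 of them, Sult2a1 and Trim24, were at or under the background level on all arrays. Prlr, the prolactin receptor, chosen here after its values were seen, averaged 11.03 in thioacetamide livers and 8.74 in control livers, of which 2 were above the background level, and its difference of 2.29 ± 1.21 did not pass (limma adjusted p = 0.239). Male-patterned genes were thus lower as a rule and female-patterned genes were divided; whether the 2 lists differ was not tested.

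The 19 genes of the growth hormone receptor pathway held 3 that fell and 0 that rose in limma after adjustment, and 8 lower and 1 higher before adjustment (p under 0.05). Their median was -0.42. Igfals, the acid-labile subunit that holds insulin-like growth factors in blood, measured 11.54 ± 0.27 in thioacetamide livers and 13.65 ± 0.35 in control livers (SD, n = 4 each), a difference of -2.12 ± 0.23 or 4.33-fold lower (limma adjusted p = 0.000386). Serpina3n, a protease inhibitor induced by growth hormone in rat liver, differed by -1.09 ± 0.28 (limma adjusted p = 0.0274), a call that was lost without thioacetamide replicate 1 (-1.17) or 2 (-1.09) and without control replicate 1 (-1.05) or 2 (-1.13).

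The core of the pathway, named here for its role after values were seen, did not pass the test. Ghr, the receptor, differed by -0.72 ± 0.22 (limma adjusted p = 0.0548), Jak2 by 0.30 ± 0.25 (limma adjusted p = 0.471) and Stat5b by -0.53 ± 0.17 (limma adjusted p = 0.0669). Of the known target genes, Socs2, a feedback inhibitor, differed by -1.36 ± 0.48 (limma adjusted p = 0.0875) and Igf1 by -0.44 ± 0.18 (limma adjusted p = 0.141). Cish, another feedback inhibitor, differed by -0.65 ± 1.24 (limma adjusted p = 0.769), with an SD of 1.53 in thioacetamide livers and 2.78 in control livers. A p above the threshold does not show that these transcripts were alike in both groups.

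Among 17 liver transcription factors and hormone receptors, 3 fell and 0 rose in limma after adjustment, and 4 were lower and 1 higher before adjustment (p under 0.05). Their median was -0.43. Cebpa, a hepatocyte differentiation factor, differed by -1.17 ± 0.27 (limma adjusted p = 0.0186), Esr1, the oestrogen receptor, by -1.08 ± 0.30 (limma adjusted p = 0.0395) and Thrb, a thyroid hormone receptor, by -0.75 ± 0.21 (limma adjusted p = 0.0396). The calls depended on which array was left out: 0 genes of the list fell without thioacetamide replicate 1 or without thioacetamide replicate 2, 1 fell without thioacetamide replicate 4 or without control replicate 1 or 4, and 5 fell without control replicate 3. Nr3c1, the glucocorticoid receptor, chosen for its role, differed by -0.16 ± 0.22 (limma adjusted p = 0.676).

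Of 13 other enzymes of steroid hormone metabolism, 3 rose and 3 fell, 7 did not pass, and the median was -0.03. Srd5a3, a relative of Srd5a1 that also makes the lipid carrier for protein glycosylation, rose to 10.83 ± 0.15 in thioacetamide livers, against 9.04 ± 0.37 in control livers (SD, n = 4 each), a difference of 1.78 ± 0.22 (3.44-fold, limma adjusted p = 0.000755). Hsd3b7, a bile acid synthesis enzyme related to Hsd3b5, differed by -1.46 ± 0.28 (limma adjusted p = 0.00688), and Hsd17b6 by -1.09 ± 0.22 (limma adjusted p = 0.00939). Srd5a2 and Hsd3b1, chosen as namesakes of the members, were at or under the background level on all arrays. Hsd3b2, which the files list under the symbol Hsd3b1 as well and which was named here after its values were seen, rose by 1.01 ± 0.18 (limma adjusted p = 0.00494), with 3 of 4 treated and 0 of 4 control arrays above the level.

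The 11 other lipocalins, which share the fold of the globulins, held 2 that fell and 1 that rose, with a median of -0.14. C8g, the gamma chain of complement component C8, differed by -1.70 ± 0.19 (limma adjusted p = 0.000419) and Apom, an apolipoprotein of high-density lipoprotein, by -0.91 ± 0.19 (limma adjusted p = 0.0118). Ptgds, prostaglandin D synthase, differed by 0.78 ± 0.23 (limma adjusted p = 0.0456) with all 4 controls at or under the background level; the call was lost without any 1 of 7 arrays, and held only without thioacetamide replicate 3. The abundant plasma lipocalins, picked after values were seen, did not pass, with differences of 0.02 ± 0.18 for Rbp4 (limma adjusted p = 0.966), -0.14 ± 0.16 for Ambp (limma adjusted p = 0.617) and -0.25 ± 0.20 for Orm1 (limma adjusted p = 0.451). Their control means were 15.51, 15.16 and 14.92, where the highest values on control arrays were 15.89 to 15.97. The top of the scale could shorten these differences, which was not tested.

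**Figure D4:**
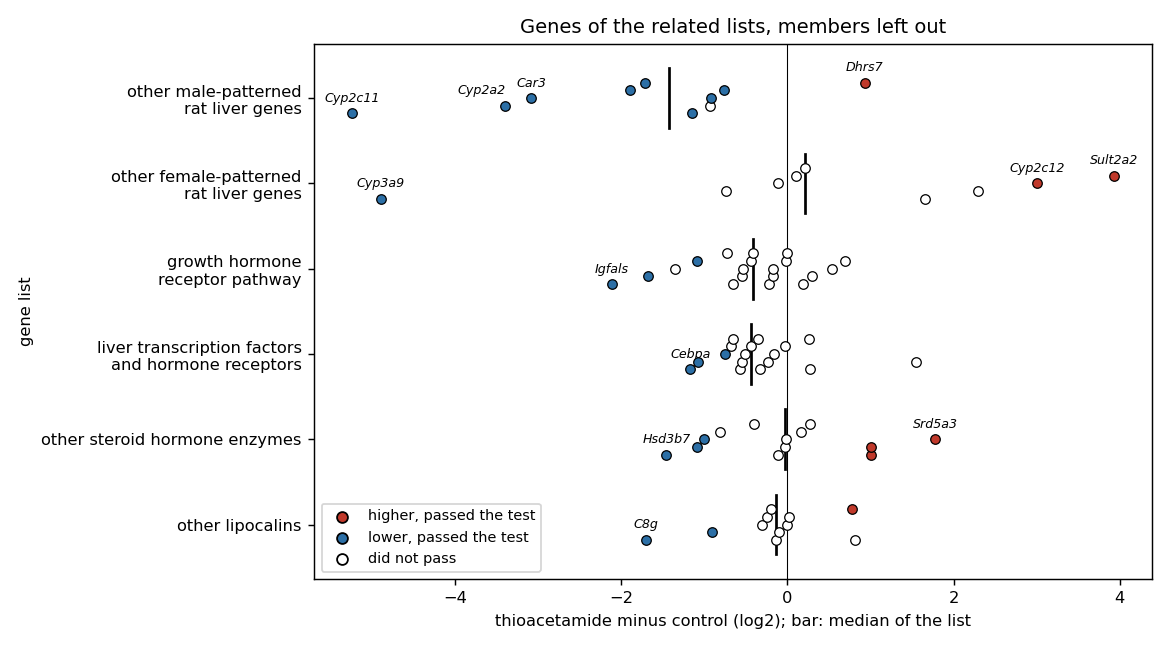
Difference between thioacetamide and control means (log2, horizontal axis) for each gene of 6 related lists (vertical axis), members left out; red points are higher and blue points lower after limma with Benjamini-Hochberg adjustment at 0.05, open points did not pass, and black bars are list medians. Male-patterned genes have a median of -1.43 with Dhrs7 alone higher, female-patterned genes range from -4.90 (Cyp3a9) to 3.94 (Sult2a2, 1 of 4 controls above the background level), and the other medians lie between -0.43 and -0.03.

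Markers of other liver cells moved beside these differences. Bile duct genes held 1 of 5 higher (Epcam, 1.87 ± 0.26, limma adjusted p = 0.00141), with a summed linear level of 4425 to 7711 in thioacetamide livers and 1792 to 5261 in control livers. Sox9 at 1.26, Krt7 at 0.23, Krt19 at 0.08 and Spp1 at -0.31 did not pass in limma, and Sox9 was higher at an unadjusted p under 0.05. Krt7 was above the background level on 2 of 4 treated and 0 of 4 control arrays. Stellate cell genes held 2 of 6 higher (Lrat, and Des with 2 of 4 treated and 0 of 4 control arrays above the background level), while Acta2 at -0.71 and Pdgfrb at -0.46 did not pass. Their sums were 15056 to 25519 in thioacetamide livers and 9612 to 22107 in control livers. Macrophage genes held 3 of 7 lower (Marco, Clec4f and Csf1r), with sums of 24165 to 32936 in thioacetamide livers and 29328 to 55519 in control livers. T and NK cell genes held Gzma and Nkg7 of 6 lower (sums of 700 to 956 in thioacetamide livers and 1370 to 2457 in control livers). Cd3g at 0.70, Cd8a at 0.18, Cd3d at -0.04 and Cd3e at -0.33 did not pass in limma, and Cd3g was higher at an unadjusted p under 0.05. Of these 6 genes only Gzma was above the background level on all arrays. Red cell genes held Alas2 of 2 lower (sums of 6295 to 12725 in thioacetamide livers and 13948 to 25185 in control livers). No endothelial gene of 5 and no B cell gene of 3 passed in limma, with 2 and 1 lower at an unadjusted p under 0.05 and none higher; the sums were 7891 to 10594 and 156 to 235 in thioacetamide livers, against 9731 to 12762 and 203 to 312 in control livers. The part of these cells in the globulin differences was not tested.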

How the data were processed

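Liver RNA of 4 thioacetamide-treated and 4 control rats was hybridised to 1-colour NimbleGen arrays. The deposited values are log2 expression values per probe set, made by the authors with RMA, per the submitters' processing notes; no settings, version or genome build of it was given in the sources. The deposited series table and the single-array files held the same values (largest difference 0). RMA scales arrays to like distributions, so a difference is relative to the other genes, and values near the top or the background of the scale understate a fold.

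Probe sets of 3 probes (19600), 2 probes (6592) or 1 probe (16) were named through their gene identifier (20543) or accession (31) in RefSeq's rat gene table (GRCr8); 5634 kept the symbol of the files. In control replicate 4, 11 probe sets had no value, none of them a member. A gene of a list with several probe sets was represented by the brightest.

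Differences, thioacetamide minus control, were fitted with limma 3.58.1 (R 4.3.3; lmFit and eBayes on all 8 arrays, two-sided, Benjamini-Hochberg over 26208 probe sets, threshold 0.05), which was also run on simulated data. The members, lists and background level were chosen with earlier results of these data known. Named from each list were up to 3 changed genes with the largest difference, the largest in the opposite direction and, for each member, the 3 genes with the nearest profile; others are named as chosen later. Some genes of the lists are counted but not reported here by name. The alternatives changed the scaling (centring on the median, a repeat of quantile normalization, or cyclic loess), dropped dim probe sets (not above the level on at least 4 arrays), let the variance follow intensity with robust fitting, weighted the arrays, took replicate numbers as blocks, or left out each array. Promoters were aligned with Biopython 1.88. The number of arrays limits the precision.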

Additional observations from a re-analysis of the deposited data

Results flagged for a closer look

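Of 56 groups of 4 arrays examined, 2 held an array far from the other 3, where chance flags about 1 in 20. They covered the 9 members and the 19 changed genes named from the lists by size of difference, in each group. Other genes named in the text were not examined in this way. Mup4 stood at 6.51 in thioacetamide replicate 3, where the other thioacetamide livers lay between 5.54 and 5.64; all were at or under the background level. Cux2 stood at 8.28 in control replicate 4, where the other control livers lay between 6.23 and 6.52, and it was the only array on which Cux2 passed the background level. Both are close to background, and neither carries a direction.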

How the results depend on the processing

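The log2 difference of each of the 9 members stayed within 1 replicate SD of its value under every alternative that gave a value; the filter on dim probe sets left out Mup4, A1bg and Cux2. Leaving out 1 array gave -4.06 to -3.51 for Obp3, -2.10 to -1.49 for Mup5, -4.76 to -4.28 for Mup4l3, -5.92 to -4.82 for LOC688253, -5.92 to -5.46 for Hsd3b5, -1.60 to -0.96 for Srd5a1, -0.45 to 0.07 for A1bg and -0.69 to 0.00 for Cux2. The 10 other globulin probe sets, an alternative set chosen after seeing the data, had medians from -3.01 to -2.48 without 1 array.

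The main fit did not pair arrays by replicate number. Over all probe sets, deviations of same-numbered arrays correlated at 0.25, -0.10, -0.13 and -0.43, which does not speak for single genes. With the number as a block, the standard error fell from 0.357 to 0.245 for Obp3 and from 0.394 to 0.236 for Mup5. It fell from 0.383 to 0.241 for Mup4l3, and among the members it rose only for Srd5a1, from 0.432 to 0.452. Whether the numbers link the arrays for these genes was not tested. With the number as a block, 2163 probe sets changed (1475 higher, 688 lower) in place of 3827 (2480 higher, 1347 lower), transcription factors had 1 higher and 0 lower, and lipocalins 0 higher. Over the arrays left out, probe sets changed numbered 2166 to 3924 (1447 to 2436 higher, 719 to 1488 lower), with 2166 without thioacetamide replicate 2 and 2466 (1638 higher, 828 lower) without replicate 1; transcription factors had 0 to 5 lower and 0 to 1 higher, and lipocalins 0 to 1 higher. Cyclic loess turned 53.5% of changed probe sets to higher in place of 64.8%, with 5 pathway genes lower and 0 lipocalins higher, and median centring left 0 lipocalins higher. The filter moved the median of all probe sets to 0.14 and gave 2 female-patterned genes lower, pathway genes 1 higher and 5 lower, 1 transcription factor higher and 0 lipocalins higher. The trend with robust estimation gave 2 female-patterned genes lower, pathway genes 1 higher and 6 lower, 1 transcription factor higher and 0 lipocalins higher. Array weights gave 2082 probe sets lower, 2 female-patterned genes lower, 6 pathway genes lower, transcription factors 1 higher and 5 lower, and 2 lipocalins higher. Taking the dimmest probe set of a gene left 1 female-patterned gene higher. Beyond fewer arrays or genes, the cause was not tested. Calls were also lost under the block for Serpina3n, Cebpa, Esr1, Thrb and Ptgds, under the trend for Thrb and Ptgds, and under median centring and cyclic loess for Ptgds, and no result that passed a test reversed. A1bg, near background and given no direction, stood at 0.07 without control replicate 1. Signal near the array top or the background limits the differences of bright globulins and of Mup4, A1bg and Cux2.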
